A study of Mus musculus with 48 samples.

Results

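Etv1, Lmx1a, Hhex, Mnx1, Fev, Onecut3, St18 and Myt1 are transcription factors linked to particular kinds of enteroendocrine cell, the hormone-secreting cells of the gut epithelium. They were taken as a list of named genes, and all 8 were found among the 53465 genes of a mouse count table. The libraries came from 17 male mice on a C57BL6 background that carried Neurod1-cre and an eYFP reporter (Neurod1-cre-eYFP), so that cells with a history of Neurod1 expression fluoresced and could be sorted. Each library held RNA from the eYFP-positive, CD45-negative epithelial cells of 1 mouse and 1 gut region, and the study asked whether gut surgery changes these cells. The controls therefore carried the same transgenes, and any cell with past Neurod1 activity entered the gate, whatever hormone it made.

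Chow-fed mice of about 20 weeks underwent vertical sleeve gastrectomy (VSG), in which about 70% of the stomach was removed, or a sham operation. One sham group ate ad libitum and the other was fed restricted meals so that its body weight matched that of the VSG mice (sham weight-matched). Liquid diet was given around surgery and chow afterwards. Tissue was collected 6 weeks after surgery, about 15 minutes after 3 g/kg of glucose given to fasted mice. The 3 regions were the top 5 cm of the small intestine (duodenum), its bottom 15 cm (ileum) and the colon with rectum. Each region was represented by 6 libraries of VSG mice and 5 of either sham group, 48 in all. Mice are the replicates, and 15 mice gave all 3 regions.

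Enteroendocrine cells arise from crypt progenitors that pass through Neurog3 and then Neurod1 expression, after which further factors bias a cell towards one hormone. Enterochromaffin cells make serotonin through Tph1 and occur along the whole intestine, D cells make somatostatin, K and I cells of the upper small intestine make GIP and cholecystokinin, and L cells, more frequent distally, make proglucagon products and PYY. Lmx1a and Mnx1 are homeodomain factors of the enterochromaffin lineage, and Fev is an ETS factor known from serotonin neurons. Hhex is a homeodomain factor of D cells, Etv1 an ETS factor of peptide-making cells, and Onecut3 a member of the hepatocyte nuclear factor 6 family. Myt1 and St18 are related zinc finger factors expressed during endocrine differentiation.

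Upstream sequence is shown for Lmx1a, Fev and Myt1 because they varied together over all libraries, as described further on. Lmx1a and Fev did so only weakly within ileum. Their relation within duodenum was computed only with the library of mouse 27, described further on, which was the lowest there for both. Each stretch is the 250 bases before the first RefSeq start site, read 5′ to 3′ on the gene's strand of GRCm38.p6. It lies at chr1:167689308-167689557 (plus strand) for Lmx1a, chr1:74885409-74885658 (minus strand) for Fev and chr2:181763082-181763331 (plus strand) for Myt1. Capitals mark motif matches on either strand.
Lmx1a: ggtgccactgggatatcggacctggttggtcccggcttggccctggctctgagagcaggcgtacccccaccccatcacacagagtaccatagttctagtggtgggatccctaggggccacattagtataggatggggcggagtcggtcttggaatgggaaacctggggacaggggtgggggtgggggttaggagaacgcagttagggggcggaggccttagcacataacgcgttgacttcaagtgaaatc
Fev: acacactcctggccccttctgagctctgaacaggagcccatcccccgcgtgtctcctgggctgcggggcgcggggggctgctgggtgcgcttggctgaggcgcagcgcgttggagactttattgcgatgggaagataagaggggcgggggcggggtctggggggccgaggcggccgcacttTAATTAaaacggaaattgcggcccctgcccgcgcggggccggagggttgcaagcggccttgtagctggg
Myt1: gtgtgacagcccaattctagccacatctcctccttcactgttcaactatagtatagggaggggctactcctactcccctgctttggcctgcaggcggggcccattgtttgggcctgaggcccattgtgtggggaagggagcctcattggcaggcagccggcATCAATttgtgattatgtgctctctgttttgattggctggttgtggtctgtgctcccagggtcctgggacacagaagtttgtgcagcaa
A set of 5 short motifs was searched, namely TAATTA (a homeodomain core), ATCAAT (the Onecut core), CAGATG (an E-box), CCGGAAG (an ETS core) and AAAGTTT (the core bound by MYT factors), each with its reverse complement. The Fev stretch held 1 TAATTA, starting 69 bases before the start site. Of all 32851 mouse promoters in the table, which span 250 bases before to 50 after a start, 5.29% held it. In Myt1, 1 ATCAAT began 89 bases before the start, and 7.54% of promoters held this motif. Myt1 has further listed starts, not printed here. A match of ATCAAT began 163 bases before start 2, and AAAGTTT, held by 4.74% of promoters, began 139 bases before start 3. The Lmx1a stretch held none of the searched letters, and matches are descriptions of sequence, with no evidence here on binding. Promoters were listed for 6 of the 8 genes. Onecut3 and St18 had no entry.

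Total counts per library ran from 4648651 to 17182463, with a median of 6713018. The sorted cells had the defining genes of enteroendocrine cells: the 10 pan-endocrine genes, among them Chga and Chgb, summed to medians of 56771 CPM (counts scaled to library size) in duodenum, 44355 in ileum and 47696 in colon. Markers of other cells were also present. The 9 enterocyte genes summed to medians of 6423, 7893 and 528 CPM in the same order. Other lists were highest elsewhere. Goblet genes summed to medians of 3718, 4037 and 9361 CPM and colonocyte genes to 1106, 1912 and 2767, both highest in colon. Paneth genes were highest in ileum, with medians of 275, 2419 and 17.3 CPM. One library stood apart, the duodenum of sham weight-matched mouse 27. Its pan-endocrine sum was 12153 CPM against 39254 to 74976 in the other duodenum libraries, and its enterocyte sum was 44161 against 4969 to 13300. For 7 of the 8 transcription factors, all except Mnx1, it had the lowest level of the 16 duodenum libraries, so results are also given without it. In sorted bulk RNA, fewer cells of a kind and less RNA per cell cannot be told apart.

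All 8 genes passed the filter on low counts, Hhex largely through its duodenum libraries. Levels are given in CPM, scaled by the trimmed mean of M values (TMM), as mean ± SD over the 16 libraries of a region. To compare genes with each other, levels were divided by exon length (CPM per kb). In duodenum Lmx1a stood at 72.0 ± 19.5 CPM per kb and Fev at 65.3 ± 12.97, a gap within their spread. Myt1 (20.9 ± 5.28) and Onecut3 (18.2 ± 5.89) came next and were also within their spread of each other, and St18 was at 12.0 ± 2.98. Mnx1 followed at 8.47 ± 2.24, Etv1 at 2.65 ± 0.951 and Hhex at 0.449 ± 0.208 CPM per kb. In colon Fev was at 61.4 ± 15.6 and Lmx1a at 39.5 ± 12.5 CPM per kb, while Onecut3, at 0.423 ± 0.289, had moved to a place between Etv1 (0.998 ± 0.476) and Hhex (0.0648 ± 0.118).

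**Figure D1:**
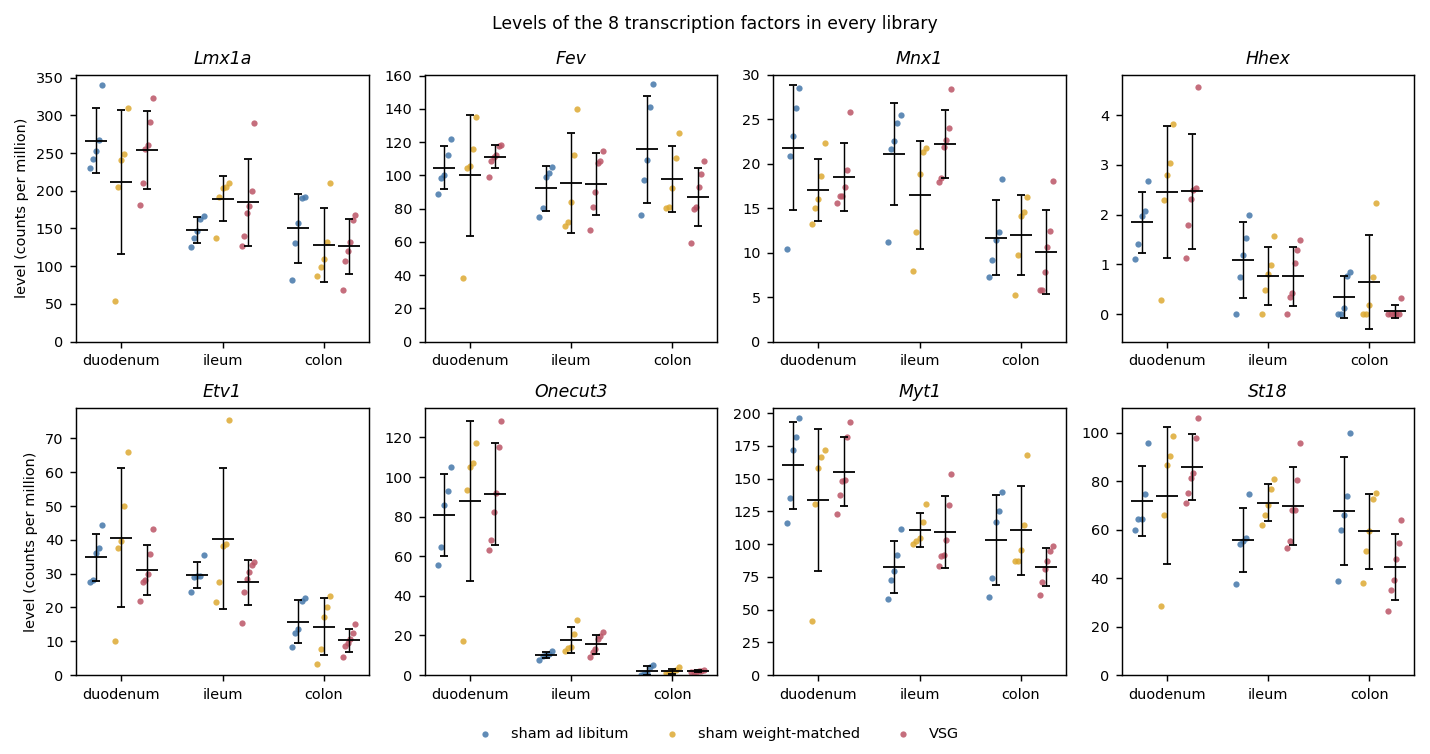
Level of each transcription factor (CPM, linear axis, a separate scale for each gene) in all 48 libraries, by gut region and surgery group. Points are libraries, 1 for each mouse, and black bars give the mean ± SD of 5 or 6 libraries. Onecut3 drops from 87.1 CPM on average in duodenum to 14.4 in ileum and 2.02 in colon, Fev averages 106, 94.2 and 99.3 CPM with mouse 27 included, and the low sham weight-matched point in most duodenum panels is mouse 27.

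The first comparison was between gut regions, averaged over the 3 surgery groups. Relative to duodenum, 4 of the 8 genes were lower in ileum and 7 were lower in colon, and 5 were lower in colon than in ileum. None was higher in any of these contrasts. Calls are at an adjusted p under 0.05 by edgeR's quasi-likelihood test with Benjamini-Hochberg adjustment over 15126 genes. Region differences were common among all genes: 33.8% were called for ileum against duodenum, 55% for colon against duodenum and 49.2% for colon against ileum, with similar numbers in each direction (4047 higher and 4275 lower in colon than in duodenum). The median log2 fold change of the 8 genes was -0.37, -0.81 and -0.59 in the 3 contrasts, against medians over all genes of 0.0045, -0.015 and -0.011. DESeq2 and limma's voom called the same number of the 8 genes in each contrast.

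Onecut3 showed the steepest fall of the 8. In duodenum its 16 libraries ran from 17.3 CPM (mouse 27) through a median of 92.5 to 128. In ileum they ran from 7.48 through 12.7 to 27.6, and in colon from 0.192 through 1.55 to 5.21. No colon library reached the lowest ileum or duodenum library, and all 15 mice with the regions in question were lower in ileum than in duodenum. Fitted log2 fold changes were -2.63 (SE 0.213, edgeR adjusted p = 1.61e-13) for ileum, or 6.17-fold lower, and -5.44 (SE 0.260, adjusted p = 4.58e-22) for colon, or 43.3-fold lower. Onecut3 was also 7.01-fold lower in colon than in ileum (log2 fold change -2.81, SE 0.256, adjusted p = 1.16e-12). The gene lies at chr10:80494835-80517276 on the plus strand of GRCm38. It overlaps the unconfirmed transcript model 2610034O05Rik on the same strand without a shared exonic base.

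Its paralog Onecut2 had the same order of levels. Onecut2 fell from 273 ± 39.9 CPM in duodenum to 11.6 ± 6.44 in ileum and 1.38 ± 1.94 in colon (n = 16 each), by edgeR log2 fold changes of -4.58 and -7.85 against duodenum. Reads of 50 bases can be hard to assign where the paralogs are alike, so the split between both is uncertain in those stretches.

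Hhex, the D cell factor, was the scarcest of the 8 in every region. It had 2 to 36 counts per library in duodenum (309 in all), 0 to 13 in ileum (89 in all) and 0 to 12 in colon (33 in all). No Hhex count was seen in 3 ileum and 9 colon libraries, which allows up to 0.423 to 0.732 CPM in those ileum libraries and 0.312 to 0.686 in those colon libraries (3 counts, counting error only). Mean levels were 2.27 ± 1.05, 0.868 ± 0.621 and 0.328 ± 0.595 CPM. The fall from duodenum was -1.36 on the log2 scale in ileum (SE 0.464, edgeR adjusted p = 0.0193) and -3.05 in colon (SE 0.535, adjusted p = 3.25e-06). Between ileum and colon the log2 fold change was -1.69 (SE 0.553, adjusted p = 0.00932). All 15 mice had less Hhex in colon than in duodenum. Hhex passed the filter on low counts largely through duodenum, so that being tested depended on the region where it was highest.

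The hormone of D cells went the same way over the regions. Sst, which encodes somatostatin, had log2 fold changes of -1.20 in ileum and -5.58 in colon against duodenum, both past the edgeR threshold. A ratio of Hhex to Sst was not formed, since most colon libraries held no Hhex count.

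Etv1, the ETS factor of peptide-making cells, was lower in colon and was not called between duodenum and ileum. Duodenum libraries ran from 9.97 (mouse 27) to 65.9 CPM with a median of 36.0, and ileum libraries from 15.5 to 75.4 with a median of 29.3. Colon libraries reached from 3.26 to 23.3 CPM around a median of 12.5, and colon was lower than duodenum in all 15 mice and lower than ileum in all 16. The contrast of ileum with duodenum was -0.14 (95% confidence interval -0.54 to 0.26, edgeR adjusted p = 0.634). Colon gave -1.40 against duodenum (SE 0.206, adjusted p = 1.33e-07) and -1.26 against ileum (SE 0.207, adjusted p = 1.58e-06), or 2.65-fold and 2.40-fold lower. Etv1 is also expressed by interstitial cells of Cajal. The 5 genes listed for those cells moved the other way, with summed levels of 32.5 to 66.1 CPM in duodenum, 49.4 to 107 in ileum and 144 to 321 in colon. All 4 of the tested genes of that list were higher in colon than in duodenum, and their part in the Etv1 levels was not tested.

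Among the enterochromaffin factors, Lmx1a was called lower in ileum than in duodenum and lower again in colon. Its median was 251 CPM in duodenum (54.3 in mouse 27, 181 to 340 in the others), 168 in ileum (126 to 290) and 131 in colon (67.9 to 211). The groups overlapped, yet Lmx1a was lower in ileum in 13 of 15 mice and in colon in 14 of 15. Relative to duodenum, log2 fold changes were -0.49 in ileum (SE 0.154, edgeR adjusted p = 0.0114) and -0.85 in colon (SE 0.155, adjusted p = 7.75e-06). The ileum call was lost with scaling on pan-endocrine genes (-0.28, adjusted p = 0.136), and with the library index as a covariate the estimate was 0.19. Its difference between colon and ileum was close to the threshold, at -0.36 (SE 0.154, adjusted p = 0.0478), and is fragile. It was lost with DESeq2's size factors (adjusted p = 0.0605), with no filter on low counts (0.129), with the library index described further on as a covariate (0.462), and when any one of 12 of the 17 mice was left out.

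Mnx1 was lower in colon than in either part of the small intestine, which were not called as different. Medians were 17.99 CPM in duodenum (10.4 to 28.5), 21.7 in ileum (7.98 to 28.4) and 11.03 in colon (5.18 to 18.2). Colon was lower than ileum in 15 of 16 mice. The log2 fold changes of colon were -0.77 against duodenum (SE 0.163, edgeR adjusted p = 7.69e-05) and -0.82 against ileum (SE 0.164, adjusted p = 3.66e-05), while ileum against duodenum gave 0.05 (95% interval -0.27 to 0.37).

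Fev had no call in any region contrast when all libraries were used. Median levels were 110 CPM in duodenum (38.4 in mouse 27, 88.9 to 135 in the others), 94.6 in ileum (67.4 to 140) and 95.3 in colon (59.1 to 155). The colon contrast was -0.08 against duodenum, with a 95% interval of -0.31 to 0.16 (edgeR adjusted p = 0.595), and 0.08 against ileum (interval -0.16 to 0.32). In ileum against duodenum the estimate was -0.16 (interval -0.40 to 0.08). The ileum estimate depended on mouse 27. Without its duodenum library it was -0.23 (edgeR adjusted p = 0.0627), and without all libraries of that mouse it was -0.29 and passed the threshold (adjusted p = 0.0138). Equal levels are not shown by these intervals, which reach -0.40 and 0.32.

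The related zinc finger factors Myt1 and St18 had differences from duodenum that turned sign with the library index described further on as a covariate. When the duodenum library of mouse 27 was also left out, only St18 in ileum kept the turned sign. Myt1 had a median of 153 CPM in duodenum (41.5 in mouse 27, 116 to 196 in the others), 101 in ileum (58.4 to 154) and 91.1 in colon (59.4 to 168). It was lower by -0.58 in ileum (SE 0.136, edgeR adjusted p = 7.53e-04) and by -0.61 in colon (SE 0.136, adjusted p = 1.80e-04) on the log2 scale. Ileum and colon differed by -0.03 (interval -0.30 to 0.25). St18 had medians of 78.2, 67.0 and 57.1 CPM, and its fall passed the threshold between colon and duodenum (-0.45, SE 0.133, adjusted p = 0.00382). The ileum contrast of St18 was -0.24 (SE 0.133, adjusted p = 0.164), and without the mouse 27 duodenum library it was -0.31 with an adjusted p of 0.0334.

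**Figure D2:**
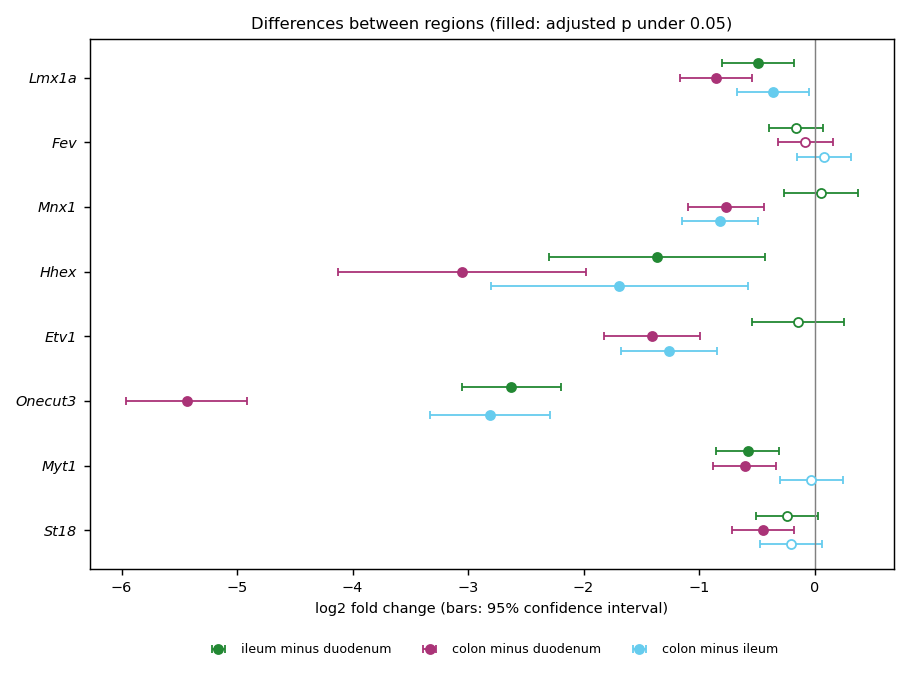
Difference between gut regions for each transcription factor, as edgeR log2 fold change (horizontal axis) with its 95% confidence interval (bars), averaged over the 3 surgery groups. Filled points passed an adjusted p of 0.05 and open points did not. Onecut3 lies at -5.44 for colon against duodenum, and the 3 intervals of Fev all include 0.

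The region calls were not equally robust to the library layout. One of the library indexes (D501 to D504 in the labels) followed region closely: D502 tagged 12 duodenum libraries and no others, D503 tagged 8 ileum and 4 colon libraries, and D504 tagged 11 colon libraries and 1 ileum library. Only D501 was shared by duodenum and ileum, with 4 and 7 libraries, plus 1 of colon. With this index as a covariate, 1 gene in place of 4 stayed past the threshold for ileum, 1 in place of 7 for colon and 3 in place of 5 for colon against ileum. One of the 4 duodenum libraries behind that estimate is mouse 27. Without it, the counts were 1, 2 and 3. The share of all genes called in these index fits was not recorded, so whether the drop is particular to the 8 genes cannot be said. With the index, ileum against duodenum turned to 0.27 for Myt1, 0.47 for St18, 0.19 for Lmx1a, 0.51 for Etv1 and 0.28 for Fev, and colon against duodenum to 0.37 for Myt1, 0.19 for St18 and 0.38 for Fev. When mouse 27 was also left out, the ileum contrast was -0.19 for Myt1, -0.47 for Lmx1a and 0.12 for St18, none of them called. Onecut3 was called in every version, at -2.17 (adjusted p = 4.09e-04) for ileum with the index and -2.91 (adjusted p = 7.10e-06) when mouse 27 was also left out. Index and region cannot be told apart for most libraries.

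Within index D501 alone and without mouse 27, Onecut3 averaged 84.5 ± 26.0 CPM in 3 duodenum libraries and 14.3 ± 4.85 in 7 ileum libraries. Lmx1a averaged 274 ± 57.9 and 197 ± 47.7, and Hhex 1.498 ± 0.44 and 0.668 ± 0.691. The step was smaller for Myt1, at 141 ± 28.2 and 109 ± 25.9 CPM. St18 went the other way, at 63.0 ± 2.75 in duodenum and 69.2 ± 16.3 in ileum.

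When libraries were instead scaled on the 10 pan-endocrine genes, the number of genes lower in ileum than in duodenum was 2 in place of 4. Lmx1a (-0.28, edgeR adjusted p = 0.136) and Hhex (-1.18, adjusted p = 0.120) no longer passed, and Onecut3 and Myt1 did. The 7 colon calls against duodenum all remained under that scaling. The share of all genes called under it was not recorded.

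Other genes of the same pathway, listed with earlier results of these data in view, gave a setting for these levels. Of 25 transcription factors shared by enteroendocrine cells, 23 were tested. In ileum against duodenum 15 were lower and 1 was higher, and in colon 16 were lower and 2 higher. The largest falls in colon were in Pdx1 (-5.87), Isl1 (-3.40) and Neurod2 (-3.31), and Pax4 (0.59) and Foxa1 (0.48) were higher. Bhlha15 (0.67) was the single factor called higher in ileum. Neurog3, which marks progenitors, had log2 fold changes of -1.50 in ileum and -2.27 in colon against duodenum, and its mean was 3.49 ± 1.56 CPM in duodenum. Of 10 pan-endocrine genes, 5 were lower in ileum and none higher, and in colon 7 were lower and 2 higher. The median log2 fold changes of that list were -0.42 and -0.94.

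A total of 6 paralogs of the 8 factors were listed and 5 were tested. Against duodenum, Etv4 (-1.14), Etv5 (-0.76), Lmx1b (-1.33) and Onecut2 were lower in ileum, and Myt1l (2.82) was higher. In colon Etv5 (-0.68), Lmx1b (-1.38) and Onecut2 were lower. Levels of Myt1l, a relative of Myt1 and St18, were 0.342 ± 0.348 CPM in duodenum, 2.38 ± 1.26 in ileum and 0.745 ± 0.797 in colon.

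Hormone and serotonin genes had calls in both directions. Of 19 listed, 16 were tested, of which 9 were lower and 5 higher in ileum than in duodenum. Gast (-8.93), Ghrl (-4.31) and Cck (-3.18) fell furthest there, and Insl5 (3.92), Nts (3.54) and Pyy (2.76) rose. In colon 8 were lower, led by Gast (-9.93), Ghrl (-9.59) and Gip (-9.06), and Insl5 (10.66) and Pyy (2.31) were higher.

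The factors and the hormone genes of their lineage were next compared library by library. Each gene's log2 CPM was centred on the mean of its surgery and region group, which removes region and surgery, and correlated over the 48 libraries. The libraries share mice and differ in how much endocrine RNA they held, so that correlations are descriptions. Each r given for duodenum alone includes the library of mouse 27, and none was computed without it. Lmx1a followed Tph1, the rate-limiting enzyme of serotonin synthesis outside the brain, with r = 0.94 (Spearman 0.90), the highest value of any tested gene with Lmx1a. Within single regions r was 0.97 in duodenum, 0.92 in ileum and 0.93 in colon. Leaving out the mouse 27 duodenum library gave r = 0.89, still the highest. Slc18a1, the vesicular amine transporter, had r = 0.91, as did Snap25, a protein of the vesicle fusion machinery. Tac1, also a listed partner of Lmx1a, had r = 0.61, with 0.68 in duodenum, 0.07 in ileum and 0.71 in colon. Fev had r = 0.68 with Tph1, with 0.81 (mouse 27 included), 0.24 and 0.89 in the same order. Without the mouse 27 duodenum library these 2 values over all regions were 0.44 and 0.48.

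Between regions Lmx1a and Tph1 did not keep a fixed ratio. Without centring, r between Lmx1a and Tph1 was 0.39. The log2 ratio of Lmx1a to Tph1 counts was higher in ileum than in duodenum by 0.71 ± 0.23 (SD, 15 of 15 mice, exact sign-flip permutation test over mice, two-sided p = 6.10e-05, adjusted p = 9.16e-05 over 6 comparisons). It was lower in colon than in duodenum, by -1.15 ± 0.26 (SD, 15 of 15 mice, the same exact permutation p). Lower values in colon than in ileum were found in 16 of 16 mice, by -1.89 ± 0.29 (SD). The exact permutation p for that comparison was 3.05e-05, and these are the smallest p-values that 16 and 15 mice allow. Gene length cancels in these differences. In the edgeR fits Tph1 had log2 fold changes of -1.18 in ileum and 0.32 in colon (the latter with an adjusted p of 0.105) against duodenum, while Lmx1a had -0.49 and -0.85.

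Etv1 followed Gcg, which encodes proglucagon, with r = 0.85 (Spearman 0.75). Gcg ranked second for Etv1, after Ffar1 (r = 0.86), a fatty acid receptor of enteroendocrine cells, and first (r = 0.83) without the mouse 27 duodenum library. The other listed partners of Etv1 were Cck (r = 0.70) and Gip (r = 0.27). By region, r with Gcg was 0.80 in duodenum, 0.68 in ileum and 0.96 in colon. Relative to Gcg, Etv1 was lower in ileum than in duodenum by -1.01 ± 0.73 on the log2 scale (SD, 14 of 15 mice, exact permutation p = 3.05e-04, adjusted p = 3.66e-04). The ratio was lower again in colon, by -1.77 ± 0.52 against duodenum (15 of 15 mice, exact permutation p = 6.10e-05) and by -0.69 ± 0.62 against ileum (14 of 16 mice, exact permutation p = 7.93e-04).

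**Figure D3:**
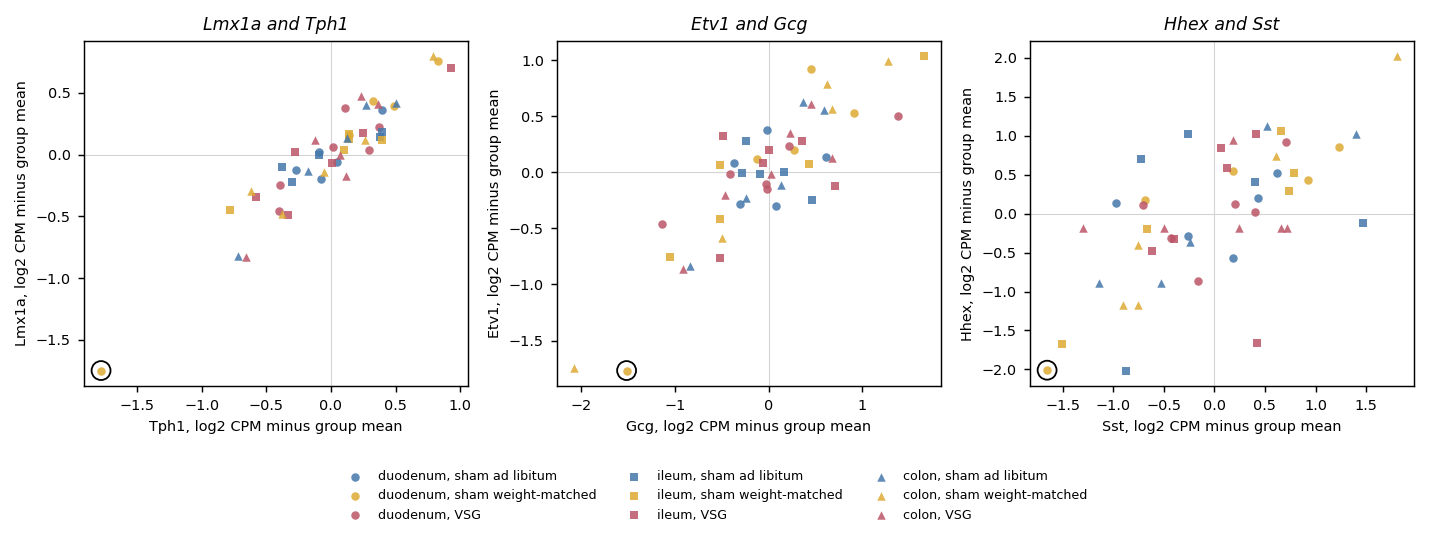
Log2 CPM of Lmx1a, Etv1 and Hhex (vertical axes) against Tph1, Gcg and Sst (horizontal axes), each minus the mean of its group, in 48 libraries. Colours give the surgery group and shapes the region, and the ring marks the duodenum library of mouse 27. The points follow a line for Lmx1a (r = 0.94) and scatter more for Etv1 (r = 0.85) and Hhex (r = 0.65).

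Hhex and Sst had a looser relation, with r = 0.65 (Spearman 0.62) and 0.60 without the mouse 27 duodenum library. Sst came after D130020L05Rik (0.69) and Ube2d1 (0.67) among all tested genes, and without that library it was no longer among the closest 3, which were D130020L05Rik (0.67), Bivm (0.66) and Rfesd (0.63). With few Hhex counts these values are sensitive to sampling. Mnx1, in contrast to Lmx1a, had r = 0.12 with Tph1, and its 3 closest genes were Gorab (0.70), Gcg (0.65) and Cbx1 (0.64). Mnx1 was correlated with Tph1 by -0.48 in ileum and 0.50 in colon. Without centring, the 3 closest genes of Mnx1 were Sass6 (0.75), Cnksr2 (0.74) and Tac1 (0.74), and r with Tph1 was -0.28.

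Onecut3 had a close relation to upper gut hormones across regions and a weak one over all libraries once region was removed. Uncentred r was 0.95 with Cck and 0.90 with Gip, and the closest genes were Etnk1 (0.96), Ghrl (0.95) and Gpx3 (0.95). After centring, r was 0.19 with Cck and 0.01 with Gip, and the closest genes were Sfxn2 (0.67), Dcp1b (0.65) and Tnnc1 (0.65). None of these 3 was among the closest 3 without the mouse 27 duodenum library. Within duodenum alone, where Onecut3 was most abundant and where that library lies, r was 0.78 with Cck, 0.66 with Gcg and 0.42 with Gip. These 3 values were not computed without that library. Over all regions and without it, centred r was -0.05 with Cck, 0.15 with Gcg and -0.09 with Gip. In ileum and colon r with Cck was 0.07 and -0.11.

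The closest genes of the remaining factors were as follows. St18 had Gnao1 (0.91), Cplx2 (0.91) and Pclo (0.90), of which Cplx2 and Pclo act at vesicle release sites. Myt1 had Cadps (0.90), a vesicle priming factor, with Cep170 (0.90) and Disp2 (0.90), and Fev had Camk2b (0.88), Maged1 (0.87) and Sv2c (0.86). Without the mouse 27 duodenum library, St18 had Gnao1 (0.87), Cplx2 (0.86) and Ptprn2 (0.86). Myt1 then had Hcn4 (0.84), Cadps (0.84) and Cep170 (0.83), and Fev kept Camk2b (0.79), Maged1 (0.78) and Sv2c (0.77). Neurog3 was not among them: its centred r was -0.27 with Myt1, -0.10 with St18 and -0.08 with Fev.

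Lmx1a, Myt1, St18 and Fev varied together over all 48 libraries, though not every pair did so in each region. Within regions, r of Lmx1a with Fev was 0.85 in duodenum, 0.18 in ileum and 0.91 in colon. For Myt1 with St18 it was 0.85, 0.82 and 0.81 in the same order. The duodenum values include the library of mouse 27, the lowest in duodenum for each of these factors. They were not computed without it, so how far they rest on that library is not known. Other pairs of these factors were not split by region. Of the 28 pairs among the 8 factors, Lmx1a and Myt1 had the highest centred r (0.86), followed by St18 and Myt1 (0.82), Fev and Myt1 (0.78), Fev and St18 (0.76) and Lmx1a and Fev (0.73). Without the mouse 27 duodenum library these were 0.76, 0.74, 0.64, 0.64 and 0.55. Etv1 was not separate from them, with r of 0.68 with St18 and 0.65 with Fev (0.56 and 0.51 without that library). Mnx1 and Onecut3 had lower centred r with Myt1, of 0.07 and 0.40 (0.05 and 0.11 without that library). The Fev and Myt1 stretches printed above each held 1 of the searched motifs, TAATTA and ATCAAT, and Lmx1a none. No searched motif was therefore shared by these 3 stretches, which cover only the first start of each gene.

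**Figure D4:**
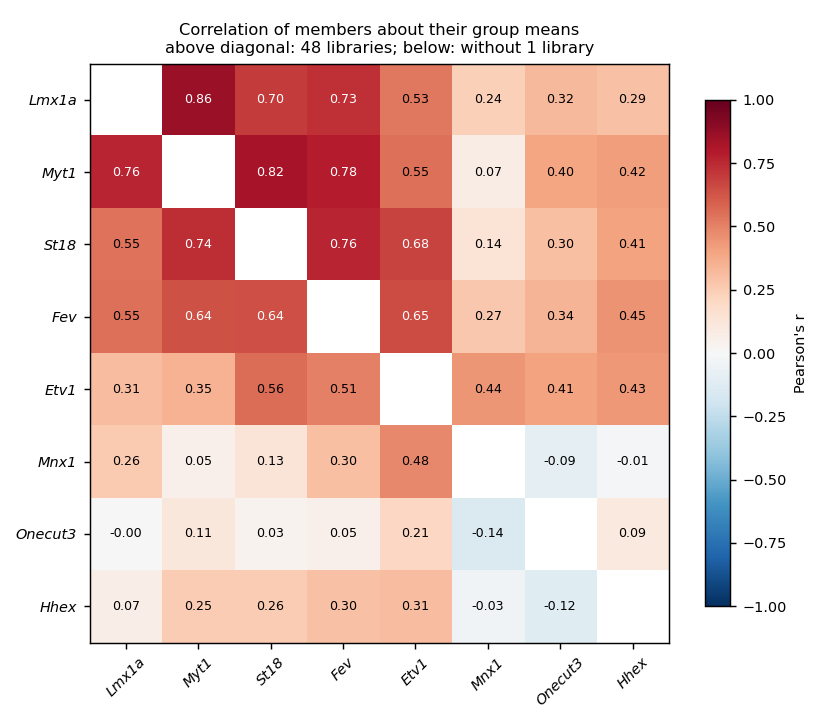
Pearson's r between each pair of the 8 transcription factors after centring log2 CPM on group means, shown as colour and printed value. Cells above the diagonal use all 48 libraries and cells below it leave out the duodenum library of mouse 27. The block of Lmx1a, Myt1, St18 and Fev runs from 0.70 to 0.86 above the diagonal and is lower below it.

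The main question of the study was the effect of VSG, asked against sham ad libitum mice and against sham weight-matched mice. None of the 8 factors was called in any of the 12 contrasts between surgery groups (averaged over regions or within a region) or in the surgery by region interaction. Of 104 edgeR tests, 0 passed an adjusted p of 0.05 and 6 had an unadjusted p under 0.05, and DESeq2 and voom also called 0. The number of genes called among all genes depended on the tool. Averaged over regions, edgeR called 0 genes (0%) for VSG against sham ad libitum, with 837 at an unadjusted p under 0.05, 16 by DESeq2 and 0 by voom. VSG against sham weight-matched gave 37 genes (0.245%), 103 by DESeq2 and 9 by voom, and the sham groups against each other 8 (0.0529%), 12 and 4. In duodenum the contrast of VSG with sham weight-matched called 0.225% of genes (34 genes, 201 by DESeq2 and 5 by voom), in ileum 0.0463% and in colon 0.0595%. The sham groups differed at 0.0132% of genes in colon and at 0% in duodenum and ileum.

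The estimates for VSG averaged over regions were small for most of the 8. Against sham ad libitum, Lmx1a (0.00), St18 (0.00), Myt1 (0.01) and Fev (-0.09) were near 0 on the log2 scale, and their 95% intervals lay between -0.33 and 0.30. Mnx1 was at -0.13 (interval -0.45 to 0.19) and Onecut3 at 0.18 (-0.31 to 0.66). Against sham weight-matched mice, Lmx1a was at 0.07 (-0.24 to 0.37), Fev at -0.01 (-0.24 to 0.22), St18 at -0.07 (-0.34 to 0.19) and Myt1 at -0.08 (-0.35 to 0.19). Onecut3 was at -0.08 (-0.56 to 0.40) and Mnx1 at 0.09 (-0.23 to 0.41). Hhex was much less certain, at -0.70 (-1.74 to 0.34) against sham ad libitum and -0.95 (-1.98 to 0.08) against sham weight-matched mice. Both moved with single mice. The first was -1.42 without mouse 22 and -0.44 without mouse 19, the second was -1.67 without mouse 22 and -0.46 without mouse 29, and voom gave -0.33 for both.

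Etv1 had the one unadjusted p under 0.05 among contrasts averaged over regions. Its estimate for VSG against sham weight-matched mice was -0.47 (SE 0.199, edgeR adjusted p = 0.405), and against sham ad libitum -0.29 (SE 0.200, adjusted p = 0.996). In ileum the sham weight-matched libraries were at 21.7, 27.5, 38.3, 38.8 and 75.4 CPM, and the VSG libraries ran from 15.5 through a median of 29.4 to 33.5. The high value of 75.4 is mouse 29, which also had the highest duodenum (65.9) and colon (23.3) values of Etv1 in its group. Without mouse 29 the estimate was -0.20 (edgeR adjusted p = 0.822), and over omissions of each mouse it ran from -0.64 to -0.20. By voom it was -0.29.

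In colon, the estimates of VSG against sham ad libitum in the edgeR fit were below 0 for all 8 factors (by voom, Onecut3 was at 0.38 in place of -0.28), with a median of -0.37 against 0.0059 over all genes, and none was called. The 23 tested transcription factors shared by enteroendocrine cells leaned the same way in that contrast, with a median of -0.30. Against sham weight-matched colon the edgeR estimates of the 8 factors were also all below 0, with a median of -0.34 (-0.21 for the shared factors). St18 and Fev had an unadjusted p under 0.05 for VSG against sham ad libitum in colon. St18 had 38.8, 59.9, 65.9, 73.8 and 99.8 CPM in sham ad libitum colon, and 26.3 to 64.0 around a median of 43.6 in VSG colon. The groups overlapped, and the log2 fold change was -0.60 (SE 0.227, edgeR adjusted p = 0.758). St18 also had an interaction p of 0.0343 (adjusted p = 1). Its estimates for VSG against sham ad libitum in duodenum and ileum were 0.26 and 0.34. Fev in colon was at -0.41 (SE 0.200, edgeR adjusted p = 0.777), with 75.9 to 155 CPM in sham ad libitum and 59.1 to 109 in VSG mice. The summed pan-endocrine genes in colon ran from 39013 to 100857 CPM in sham ad libitum and from 37242 to 67338 in VSG mice, and their part in these values was not tested.

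Hhex in colon had 3 counts in 6 VSG libraries, all of them in mouse 22, against 19 counts in 5 sham weight-matched and 11 in 5 sham ad libitum libraries. Of the 19, 12 came from mouse 29. The contrast of VSG with sham weight-matched mice had an edgeR p of 0.0129 and an adjusted p of 1. Onecut3 in ileum was at 12.2 to 27.6 CPM in sham weight-matched mice and 7.48 to 12.2 in the ad libitum group, so that the groups met at 12.2. Its log2 fold change was 0.81 (SE 0.384, edgeR adjusted p = 0.627).

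**Figure D5:**
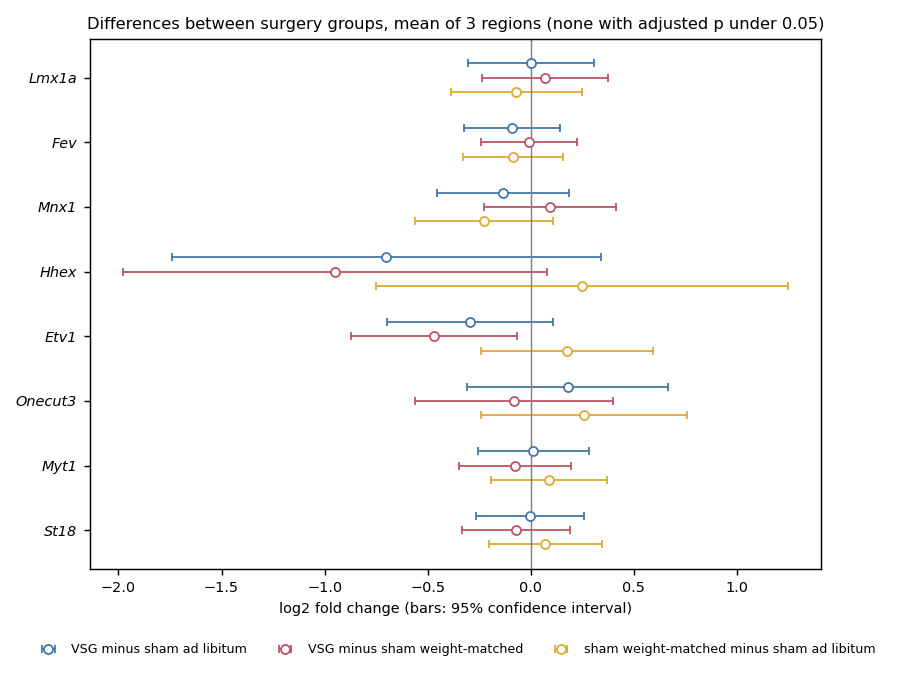
Difference between surgery groups for each transcription factor, as edgeR log2 fold change averaged over the 3 regions (horizontal axis) with its 95% confidence interval (bars). Open points did not pass an adjusted p of 0.05, which holds for all 24. The intervals are narrow for Fev, Myt1 and St18 and widest for Hhex, which spans -1.98 to 0.08 for VSG against sham weight-matched mice.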

How the data were processed

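RNA from sorted cells was made into libraries with the SMARTer stranded total RNA kit and sequenced as single 50-base reads. The deposited table holds raw counts per Ensembl gene, made by the authors with STAR 2.5.1 on GRCm38, with no normalization. The strand setting of the counting is not given in the sources used here. Of 53465 identifiers, 53360 matched GENCODE M21. Groups, regions and mouse numbers came from the labels. The ileum and colon labels of mouse 12 are crossed with its description code, and its tissue label was used. Counts were tested with edgeR 4.0.16 in R 4.3.3 (filterByExpr, 15126 genes, TMM, 9 group means, robust quasi-likelihood test, Benjamini-Hochberg over all genes). Standard errors were derived from each log2 fold change and its F statistic. Log2 CPM for correlations used a prior count of 2, also in the ratios, whose tests used SciPy 1.17.1. The alternatives were DESeq2 1.42.0 and its size factors, scaling on pan-endocrine genes, 2 filters, a mouse block (edgeR, or limma 3.58.1 voom), the library index, counts summed per mouse, and omission of libraries or mice. Tests were first tried on simulated counts. The members and all lists were chosen with earlier results of these data known. Named list genes are up to 3 per direction with the largest fold change, and named correlates the 3 highest. Libraries of 1 mouse share that animal: over 46 same-mouse pairs, the median correlation of deviations from group means was 0.105. No 2 libraries of a group were duplicates (lowest chi-square per gene 8.78). Human samples were not analysed here.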

Additional observations from a re-analysis of the deposited data

Results flagged for a closer look

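Each of the 72 groups of 5 or 6 libraries (8 genes, 3 regions, 3 surgery groups) was screened by Dixon's ratio for single distant libraries, which picks about 1 in 20 groups by chance. The screen found 5. In the sham weight-matched duodenum, Onecut3 was at 17.3 CPM in mouse 27 and at 93.4 to 117 in the others. This is the library with few pan-endocrine and many enterocyte counts described above. Lmx1a was at 137.2 CPM in the ileum of sham weight-matched mouse 29, against 192 to 210 in the others. Mnx1 was at 25.8 CPM in the duodenum of VSG mouse 30 (15.5 to 19.3 in the others) and at 11.2 in the ileum of sham ad libitum mouse 19 (21.7 to 25.4 in the others). Hhex was at 0.327 CPM in the colon of VSG mouse 22, from 3 counts, with 0 counts in the other 5 libraries.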

How the results depend on the processing

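The counts of the 8 genes called between surgery groups were 0 under every alternative run. For regions, 4, 7 and 5 genes were called (ileum against duodenum, colon against duodenum, colon against ileum). With the mouse as a replicate block, fixed in edgeR or random in voom, the counts were again 4, 7 and 5, and no call changed. Scaling on pan-endocrine genes gave 2 for the first. The library index as a covariate gave 1, 1 and 3, and 1, 2 and 3 when the duodenum library of mouse 27 was also left out. Omission of each mouse in turn gave 4 to 6, 7 and 4 to 5, with 6 (Fev and St18 added) without mouse 27. The colon against ileum call of Lmx1a was lost in 12 of the omissions. St18 gained a call there with pan-endocrine scaling (-0.39, adjusted p = 0.0273). With a minimum of 10 counts in every library of a group, Hhex was not tested. The causes of these changes were not tested, and the share of all genes called was recorded only for the main fit, DESeq2 and voom.

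Some log2 fold changes turned sign. With the index, ileum against duodenum became 0.51 for Etv1, 0.19 for Lmx1a, 0.28 for Fev, 0.47 for St18 and 0.27 for Myt1, colon against duodenum 0.38 for Fev, 0.19 for St18 and 0.37 for Myt1, and colon against ileum 0.10 for Myt1. VSG against sham ad libitum became -0.18 for Myt1. With the index and without the mouse 27 duodenum library, the ileum contrast of St18 was 0.12 and the colon against ileum contrast of Myt1 0.12, VSG against sham ad libitum was 0.0165 for Lmx1a and -0.072 for Myt1, and VSG against sham weight-matched -0.036 for Lmx1a. Pan-endocrine scaling gave 0.068 for Etv1 and 0.011 for Fev in ileum against duodenum and -0.10 for Fev in colon against ileum. For VSG it gave 0.0029 for Lmx1a against sham ad libitum, and -0.10 for Lmx1a and -0.18 for Mnx1 against sham weight-matched. Counts summed per mouse gave 0.18 for Hhex and 0.12 for St18 against sham ad libitum, and 0.0072 for Fev, 0.15 for Onecut3, 0.020 for St18 and 0.020 for Myt1 against sham weight-matched. Voom with the mouse block gave 0.0086 for St18 against sham ad libitum, and 0.038 for Fev and 0.073 for Onecut3 against sham weight-matched. Lmx1a in VSG against sham ad libitum was 0.0013 with the stricter filter and 0.0163 without the ileum and colon of mouse 12, and against sham weight-matched -0.016 without the duodenum library of mouse 27.

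Over omissions of each mouse, Mnx1 ranged from -0.0069 to 0.13 in ileum against duodenum and Myt1 from -0.089 to 0.033 in colon against ileum. VSG against sham ad libitum ranged from -0.10 to 0.052 for Lmx1a, -0.089 to 0.055 for St18 and -0.055 to 0.087 for Myt1. VSG against sham weight-matched ranged from -0.042 to 0.18 for Lmx1a, -0.063 to 0.058 for Fev, -0.25 to 0.0595 for Onecut3 and -0.18 to 0.048 for Myt1. No ratio of Lmx1a to Tph1 or of Etv1 to Gcg changed its sign or its side of 0.05 with a prior count of 0.5 or without any one mouse, the alternatives run for the ratios. The library index and the other scalings were not run on them. The ratios were added after the data were seen, as were the correlations without mouse 27 and the index fit without it. Hhex has the fewest counts, and its wide intervals limit what can be said of surgery.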
